A study of Homo sapiens with 9 samples.

Results

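9 genes of MHC class I antigen presentation, HLA-B, HLA-C, HLA-E, HLA-F, B2M, TAP1, TAP2, PSMB8 and PSMB9, were followed at the level of their transcripts by taking each array probe annotated to one of them. These were 17 of the 48799 probes, and 16 of them were tested among 16164 probes that passed a detection filter (p under 0.05 on 3 or more arrays), so that each of the 9 genes had a tested probe. The second HLA-C probe (ILMN_2150787) was detected on 0 of 9 arrays and was not tested. RNA came from MDA-MB-231, an established human breast cancer cell line, 72 h after transfection. Cells had received a first siRNA against KDM5A (KD1), a second siRNA against the same gene (KD2), or an siRNA against luciferase, a gene that human cells lack, as the control (Luc). Each group had 3 Illumina bead arrays, which gives 9 arrays in all. KDM5A, also known as RBP2 or JARID1A, is a demethylase of the histone H3 tail; its own level was not analysed here, so the depth of the knockdown is not given, and nothing in the labels says whether the 3 arrays of a group came from separate cultures.

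Class I molecules show peptides from inside the cell to CD8+ T cells. Proteasomes cut cytosolic proteins, and in cells exposed to interferon the catalytic subunits PSMB8 and PSMB9 replace their constitutive counterparts to form the immunoproteasome. The resulting peptides are pumped into the endoplasmic reticulum by a transporter made of TAP1 and TAP2. There they are loaded onto a heavy chain encoded by an HLA gene, which is held together with the light chain, beta-2-microglobulin (B2M). TAP2, PSMB8, TAP1 and PSMB9 lie next to each other, in that order, within the class II part of the MHC, and interferons are known to raise most of these genes.

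The windows of 250 bases upstream of TAP2, TAP1 and PSMB9 are shown. TAP2 and PSMB9 are the members whose brighter probe changed against Luc, as described further on. TAP1 is shown because it and PSMB9 start 487 bases apart on opposite strands, so that their windows overlap by 13 bases. The window of HLA-F, which changed with KD1 on its dimmer probe alone, is not shown. Sequences and starts are those of RefSeq on GRCh38.p14, 5′ to 3′ on the strand of the gene, and capitals mark an interferon response element, GAAANNGAA or its offset form GAANNGAAA, on either strand. The intervals are chr6:32838740-32838989 (minus strand) for TAP2, chr6:32853705-32853954 (minus strand) for the first of the TAP1 starts, and chr6:32853942-32854191 (plus strand) for PSMB9.
TAP2: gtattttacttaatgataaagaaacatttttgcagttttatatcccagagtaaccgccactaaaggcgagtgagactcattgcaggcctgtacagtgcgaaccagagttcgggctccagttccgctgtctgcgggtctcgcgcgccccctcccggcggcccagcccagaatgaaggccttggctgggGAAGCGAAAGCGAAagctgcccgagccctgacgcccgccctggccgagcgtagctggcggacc
TAP1: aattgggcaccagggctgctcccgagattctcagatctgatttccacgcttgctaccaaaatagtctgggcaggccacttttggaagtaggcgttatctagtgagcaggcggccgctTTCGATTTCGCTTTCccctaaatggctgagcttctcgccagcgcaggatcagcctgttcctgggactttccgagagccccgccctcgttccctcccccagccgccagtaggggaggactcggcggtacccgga
PSMB9: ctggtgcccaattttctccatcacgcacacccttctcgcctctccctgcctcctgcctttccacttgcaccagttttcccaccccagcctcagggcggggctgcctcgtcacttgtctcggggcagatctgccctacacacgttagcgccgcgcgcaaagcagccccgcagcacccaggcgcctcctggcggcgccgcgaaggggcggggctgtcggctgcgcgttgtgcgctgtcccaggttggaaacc

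The TAP2 window held both forms in 1 overlapping run, the offset form beginning 63 bases upstream of the start and GAAANNGAA 58 bases upstream. The TAP1 window held GAAANNGAA at 2 overlapping places on the opposite strand, 133 and 127 bases upstream. The PSMB9 window held neither form, although the TAP1 pair lies in the stretch between the starts of both genes. Of the windows of 8 members that could be matched, B2M held 2 overlapping copies of GAAANNGAA, 144 and 138 bases upstream, and HLA-F held 1, 155 bases upstream on the opposite strand. HLA-B and HLA-C each held the offset form, read as TTTCACTTC, 155 and 151 bases upstream, and HLA-B alone held the kappaB core GGGATTCC, 176 bases upstream. Neither of the PSMB8 starts had either form in its window. The gamma-activated site TTCNNNGAA, also scanned, lay 65 bases upstream of the second PSMB8 start and 189 bases upstream of the second TAP1 start. No other matched member window held it. Over 35116 RefSeq promoter windows of the same length, 6.88% held GAAANNGAA and 6.56% held the offset form. TTCNNNGAA was held by 6.57% and GGGATTCC by 0.948%. A match describes letters in a window and does not show that a factor binds there.

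An array detected 29.8% to 35.9% of its probes, and Pearson's r between arrays over the tested probes was 0.9846 to 0.9884 within groups and 0.9613 to 0.9735 between them. No array pair held identical values. Of the markers listed for this line, VIM, CD44, AXL, MSN and ANXA1 were tested, while ESR1 and PGR were undetected on all 9 arrays, and CDH1 was detected on 0 KD1, 1 KD2 and 1 Luc array. EPCAM and ERBB3, also listed as low or absent, were detected on every array by their brightest probe. Of 13 leukocyte and antigen-presenting cell markers, 12 had a probe, PTPRC was detected on 1 of 9 arrays, and CD3E and TYROBP on 0. CD14 was detected on 7 arrays and CSF1R on 6. The summed linear level of the leukocyte and antigen-presenting cell markers was 10930 to 12300 in KD1 and 11770 to 12440 in KD2, against 6163 to 7712 in Luc, and most of it came from HLA-DRA, CD74 and CD68. In limma, 2 of the 5 tested markers were higher with KD1 and 3 with KD2. CD14 went the other way with KD1 (log2 fold change -1.15, adjusted p = 0.0023), where it was detected on 1 array. The 7 fibroblast markers summed to 220 to 270.7 in KD1 and 249.6 to 296 in KD2, against 232.1 to 257.5 in Luc. Only 2 of them were tested, and they moved in opposite directions with KD2 in limma. PDGFRB was higher (log2 fold change 1.32, adjusted p = 0.00146) and PDGFRA gave -0.63 (adjusted p = 0.103). Neither passed the test with KD1. The part of these markers in the results below was not tested. The KD1 arrays sat at positions G, I and K of the chip and the others at A to F, so position and KD1 cannot be told apart.

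With KD1, TAP2 fell on both of its probes, HLA-F rose on 1 of its 2 probes, and no other member passed the test against Luc. With KD2, PSMB9 rose on its brighter probe and no other member passed the test. Between the siRNAs, 4 member probes were lower with KD1 than with KD2, both of TAP2, the brighter of PSMB9 and that of TAP1. The dim PSMB9 probe, detected in KD2 alone, entered the fit through that group, so it is left out of these counts and described apart. A call here is a Benjamini-Hochberg adjusted p under 0.05 in limma over all 16164 tested probes, and fold changes are differences of group means on the log2 scale of background-corrected, quantile-normalized intensity.

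For KD1 against Luc, 15.4% of all tested probes were called, 6.72% higher and 8.72% lower. Of the 15 member probes detected in every group, 1 was higher, 2 were lower and 12 were not called. These probes had a median log2 fold change of -0.07 and a range from -2.00 to 0.69, while the median over all tested probes was 0.00. For KD2 against Luc, 21.4% of all probes were called, 10.3% higher and 11.1% lower, and of the same 15 member probes 1, of PSMB9, was higher, with 0 lower and 14 not called (6.67% called). By an unadjusted p under 0.05 in the same limma fit, 5 of these member probes were higher and 0 lower. Over all 16164 tested probes, 5587 had an unadjusted p under 0.05 in this comparison. The member median there was 0.28, the range -0.17 to 0.80, and 13 of the 15 values were positive, against a median of 0.00 over all probes. For KD1 against KD2, 25.7% of all probes were called, 12.4% higher and 13.3% lower, and 4 of the 15 member probes (26.7%) were lower with 0 higher in limma, against 6 lower and 1 higher by an unadjusted p under 0.05. Of all 16164 tested probes, 6040 had an unadjusted p under 0.05 between the siRNAs. The arrays of both groups did not overlap for 6 of the 15 member probes in KD1 against Luc, 7 in KD2 against Luc and 11 in KD1 against KD2. Of all tested probes, 34.3%, 39.3% and 41.1% had no overlap in those comparisons. The comparisons of KD1 and of KD2 with Luc share their 3 control arrays, so their values are set side by side and their likeness is not taken as a result.

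**Figure D1:**
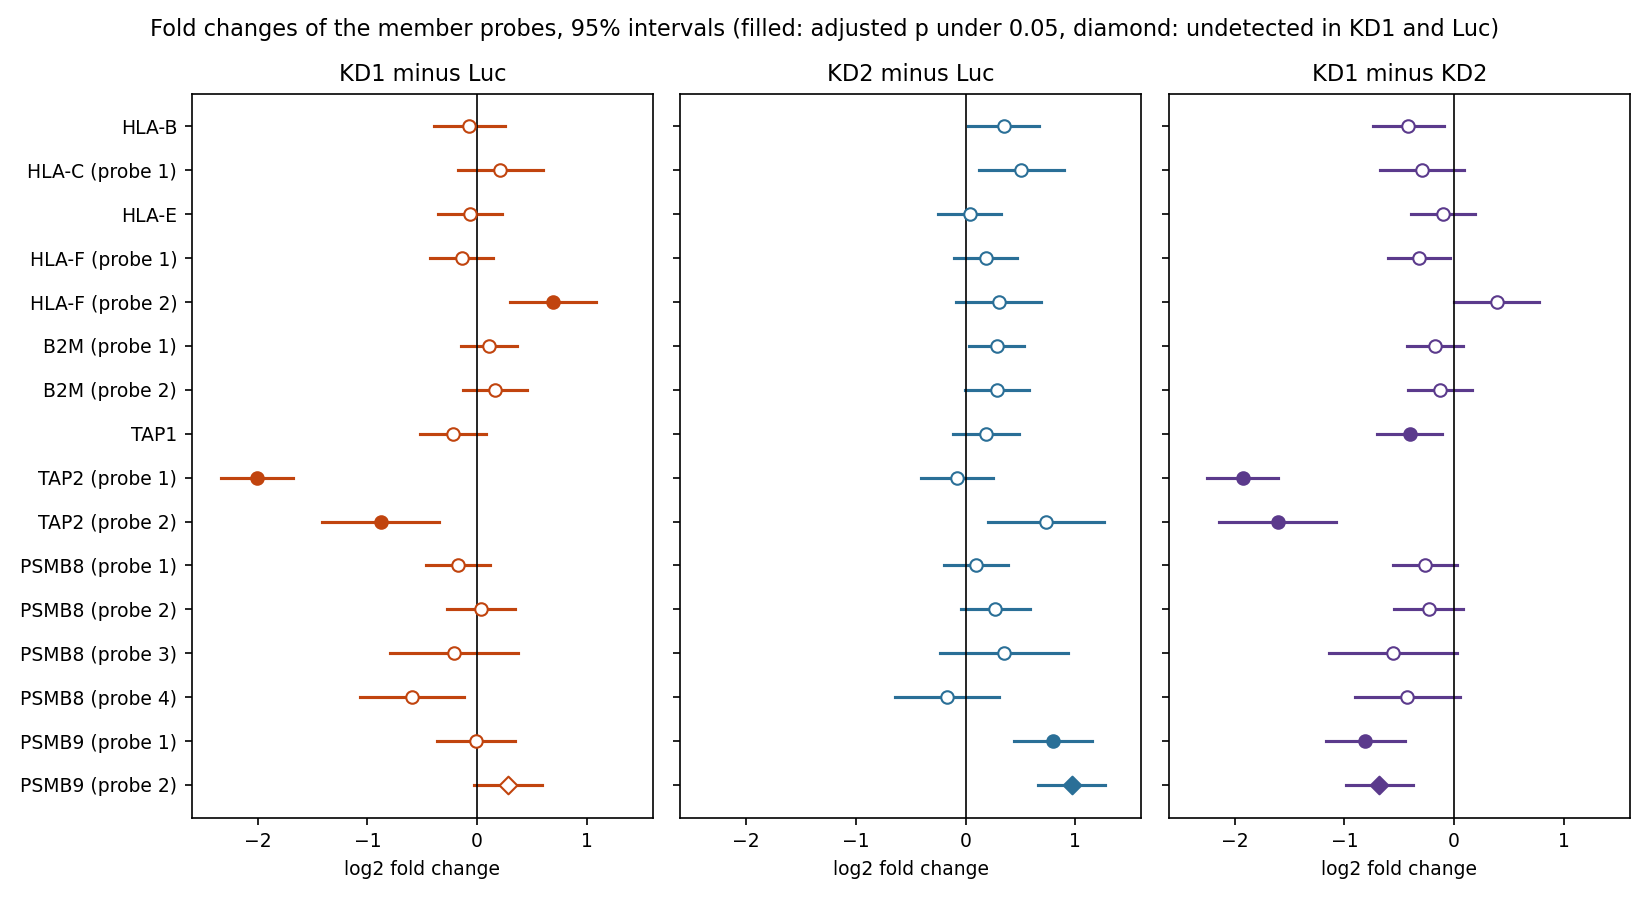
Log2 fold change of each tested member probe (points, filled where the adjusted p is under 0.05; the diamond is the PSMB9 probe undetected in KD1 and Luc, whose fitted value is no measured fold) with its 95% confidence interval, for KD1 minus Luc, KD2 minus Luc and KD1 minus KD2. The first TAP2 probe lies at -2.00 in KD1 and -0.08 in KD2 relative to Luc, and the first PSMB9 probe lies at -0.01 in KD1 and 0.80 in KD2.

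TAP2, one arm of the peptide transporter, had the widest movement of any member. Its brighter probe (ILMN_1777565) read 7.75, 8.06 and 7.65 on the KD1 arrays, 9.77, 9.80 and 9.68 on the KD2 arrays, and 9.96, 9.86 and 9.66 on the Luc arrays, in log2 intensity. Every KD1 array thus lay below every other array, and the KD2 and Luc arrays overlapped. The mean was 7.82 ± 0.21 in KD1, 9.75 ± 0.06 in KD2 and 9.83 ± 0.15 in Luc (SD, n = 3 each). The log2 fold change was -2.00 (SE 0.15, adjusted p = 5.473e-05) for KD1 against Luc, a 4.01-fold lower level. Among the 16164 tested probes, 19 had a lower log2 fold change in this comparison. For KD2 against Luc it was -0.08 (adjusted p = 0.768), with a 95% interval from -0.40 to 0.25. KD1 was also 3.80-fold below KD2 (log2 fold change -1.93, adjusted p = 2.59e-05). The drop is visible in the deposited intensities before any processing: this TAP2 probe gave 290.9, 338.7 and 280.6 with KD1 and 1056.5, 949.2 and 847.8 with KD2, against 1184.4, 1242.5 and 897.0 with Luc.

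The second TAP2 probe (ILMN_1759250), annotated to another RefSeq transcript of the gene, was lower with KD1 as well but differed from the first in KD2. It read 6.52, 6.59 and 7.13 in KD1, 8.09, 8.85 and 8.13 in KD2, and 7.69, 7.81 and 7.38 in Luc. The 3 groups did not overlap, with KD1 lowest and KD2 highest. KD1 against Luc gave a log2 fold change of -0.88 (SE 0.24, adjusted p = 0.0330), a 1.84-fold lower level. KD2 against Luc gave 0.73 (adjusted p = 0.0536), which did not pass the threshold (95% interval 0.20 to 1.26). That KD2 value was called under 6 of 19 alternatives: no background correction, the deposited values, a larger offset, detection on all arrays, an intensity trend, and without KD1 replicate 3. KD1 lay 3.05-fold below KD2 on this probe (log2 fold change -1.61, adjusted p = 9.367e-04). The KD1 call of this second TAP2 probe was lost without KD1 replicate 1, KD1 replicate 2, Luc replicate 1 or Luc replicate 2, with adjusted p between 0.0915 and 0.103, and with no detection filter (adjusted p = 0.0657). With the deposited log2 values this TAP2 log2 fold change was -0.36 (adjusted p = 0.0395).

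TAP1, the partner of TAP2 in the transporter, had 1 probe (ILMN_1751079) and no call against the control. It read 12.21, 12.05 and 12.13 in KD1, 12.57, 12.33 and 12.70 in KD2, and 12.30, 12.42 and 12.33 in Luc, so that the KD1 arrays lay below all others and those of KD2 and Luc overlapped. The log2 fold change of TAP1 was -0.22 for KD1 against Luc (adjusted p = 0.308, 95% interval -0.52 to 0.08) and 0.18 for KD2 against Luc (adjusted p = 0.379, 95% interval -0.12 to 0.48). KD1 was 1.32-fold below KD2 (log2 fold change -0.41, adjusted p = 0.0497). That TAP1 call sits at the threshold and was lost when any 1 array other than KD2 replicate 2 was left out, with adjusted p up to 0.147.

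PSMB9, an immunoproteasome subunit, stood apart in KD2, while its KD1 and Luc arrays overlapped. Its brighter probe (ILMN_2376108) read 9.00, 8.81 and 8.77 in KD1, 9.91, 9.65 and 9.44 in KD2, and 9.07, 8.81 and 8.72 in Luc. All 3 KD2 arrays lay above the other 6. The mean was 8.86 ± 0.12 in KD1, 9.67 ± 0.24 in KD2 and 8.87 ± 0.18 in Luc (SD, n = 3 each). PSMB9 was 1.74-fold higher in KD2 than in Luc (log2 fold change 0.80, SE 0.16, adjusted p = 0.00629). For KD1 against Luc the PSMB9 log2 fold change was -0.01 (adjusted p = 0.977, 95% interval -0.37 to 0.35), and for KD1 against KD2 it was -0.81 (adjusted p = 0.00469).

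The second PSMB9 probe (ILMN_1798233) was dim, and was detected on 3 KD2 arrays, 0 KD1 arrays and 0 Luc arrays. It read 4.81, 5.03 and 5.10 in KD1, 5.66, 5.78 and 5.55 in KD2, and 4.63, 4.85 and 4.61 in Luc. The KD2 arrays were again above all others. Because KD1 and Luc were not above background, only lower bounds can be given: KD2 was at least 1.48-fold higher than Luc (adjusted p = 0.001098), with measured means of 5.66 and 4.70, and at least 1.35-fold higher than KD1 (adjusted p = 0.005265), with measured means of 5.66 and 4.98. The bound takes, per array, the higher of the probe's own value and the lowest value of a probe detected there. Since this probe passed the detection filter through its KD2 arrays alone, it had to stand out in KD2 and is no support for the brighter one.

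PSMB8, the other immunoproteasome subunit, had 4 tested probes and no call in limma in any of the 3 comparisons. Its brightest probe (ILMN_2390299) read 10.97, 11.30 and 11.19 in KD1, 11.52, 11.35 and 11.40 in KD2, and 11.27, 11.32 and 11.40 in Luc, with overlap of each siRNA group and Luc. Its log2 fold change was -0.18 for KD1 (adjusted p = 0.411) and 0.09 for KD2 (adjusted p = 0.677), with 95% intervals from -0.47 to 0.11 and from -0.20 to 0.38. Over the 4 PSMB8 probes the log2 fold changes ran from -0.59 to 0.04 for KD1 and from -0.17 to 0.35 for KD2. The lowest, -0.59 for the dimmest PSMB8 probe (ILMN_2284794), had an adjusted p of 0.0902 and was the only PSMB8 value with an unadjusted p under 0.05 (0.0191). PSMB8 lies between TAP2 and TAP1 on the chromosome.

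**Figure D2:**
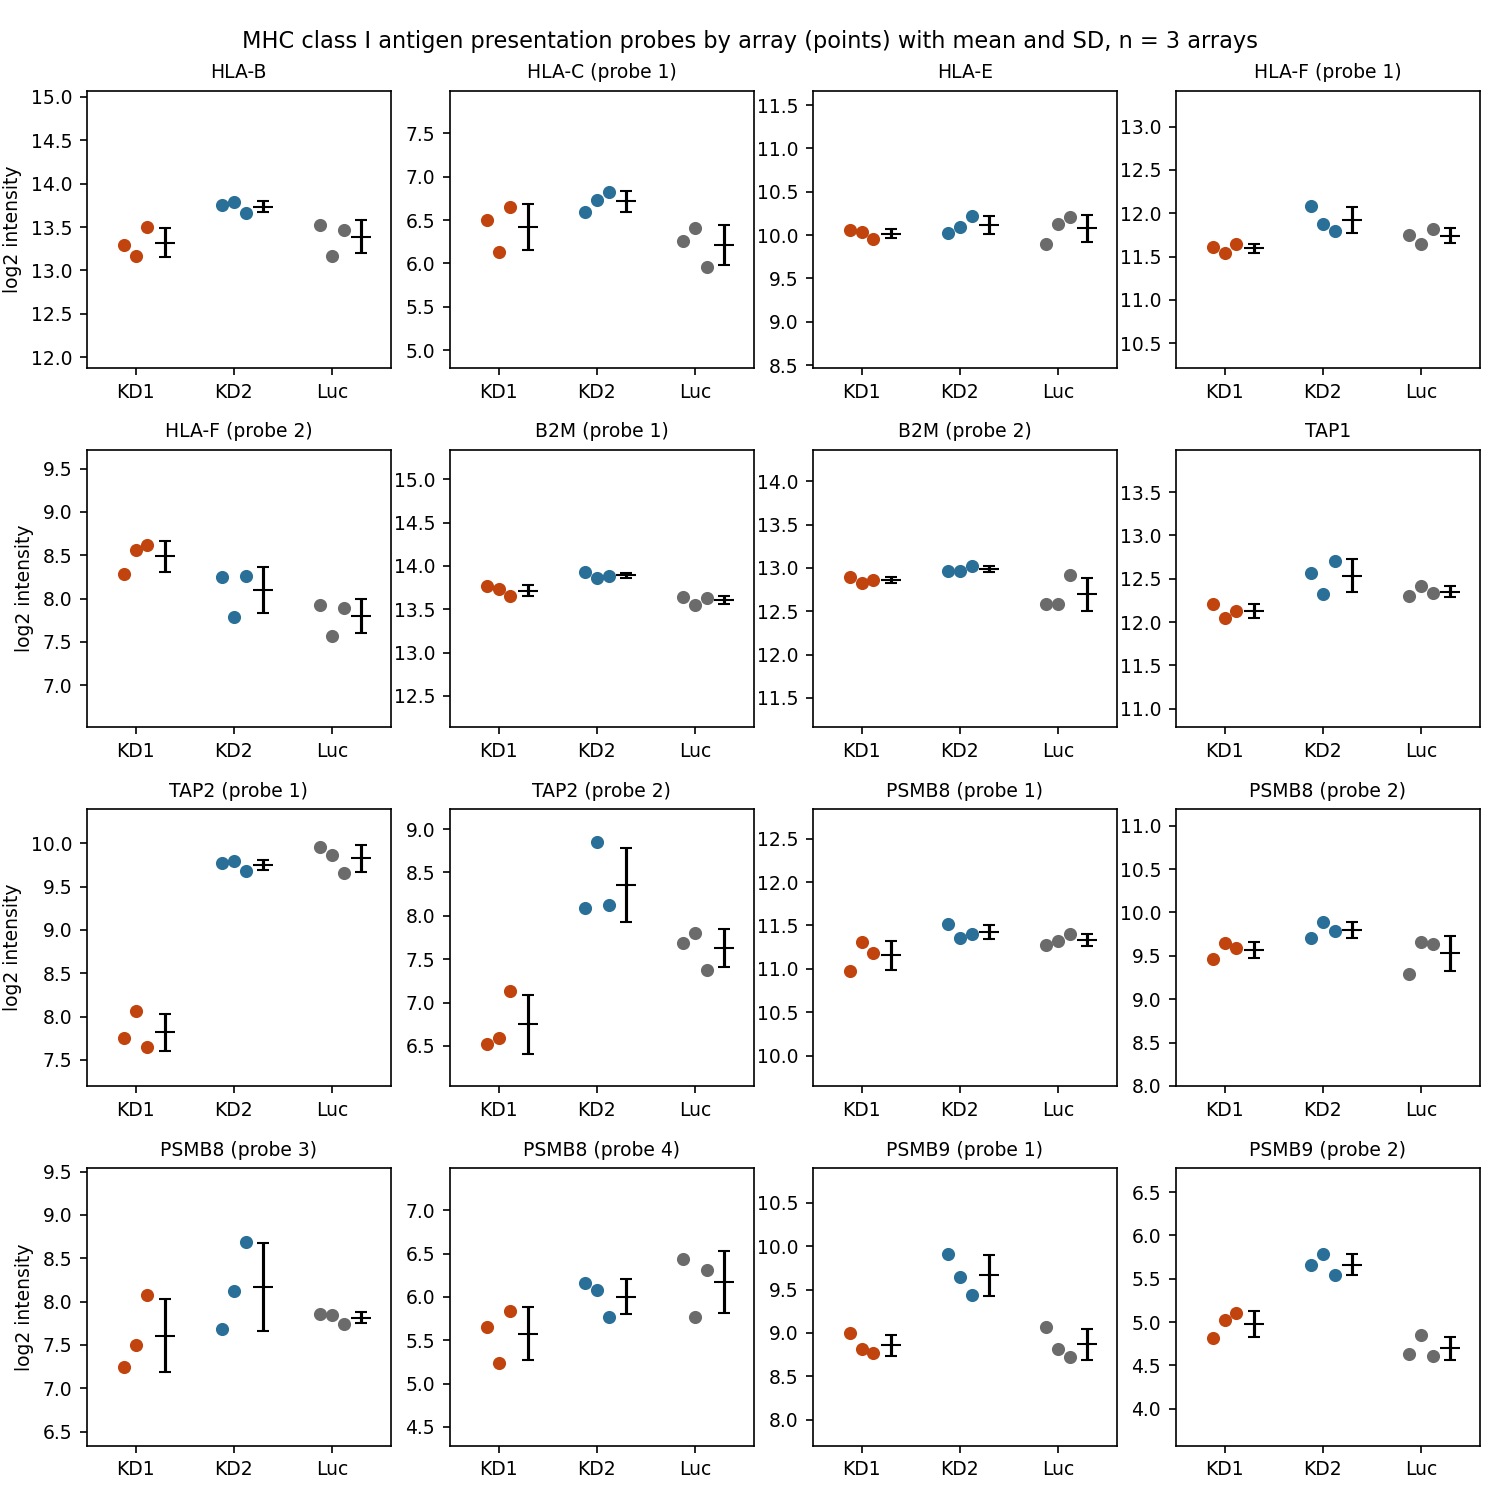
Log2 intensity of each tested member probe on each array (points), with the mean and SD of its group (n = 3 arrays), each panel on an axis of the same length. The first TAP2 probe separates KD1 (7.65 to 8.06) from the 6 other arrays (9.66 to 9.96), and the first PSMB9 probe separates KD2 (9.44 to 9.91) from the other 6 (8.72 to 9.07).

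Of the heavy chain genes, HLA-F alone had a call against Luc. HLA-B, a classical class I heavy chain, read 13.29, 13.16 and 13.50 in KD1, 13.75, 13.79 and 13.67 in KD2, and 13.53, 13.17 and 13.47 in Luc. All 3 KD2 arrays of HLA-B lay above the other 6, yet the log2 fold change against Luc of 0.35 had an adjusted p of 0.118 (95% interval 0.03 to 0.67). That KD2 value was called under 4 of 20 alternatives, the deposited values and no background correction among them. The KD1 value of HLA-B was -0.07 (adjusted p = 0.797, 95% interval -0.39 to 0.25). HLA-C, the other classical gene tested, read 6.50, 6.13 and 6.65 in KD1, 6.59, 6.74 and 6.82 in KD2, and 6.26, 6.41 and 5.95 in Luc. The HLA-C arrays of KD2 and Luc did not overlap, with a log2 fold change of 0.51 (adjusted p = 0.0642), called under 3 of 20 alternatives. Those of KD1 and Luc overlapped, with 0.21 (adjusted p = 0.461). The class I heavy chains are near-identical over long stretches, and whether a probe also reads a related gene was not tested.

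HLA-E, a heavy chain known as a ligand of the NK cell receptor NKG2A, read 10.06, 10.03 and 9.95 in KD1, 10.02, 10.09 and 10.22 in KD2, and 9.90, 10.13 and 10.20 in Luc, and all groups overlapped. The HLA-E log2 fold change was -0.06 for KD1 (adjusted p = 0.799, 95% interval -0.35 to 0.23) and 0.04 for KD2 (adjusted p = 0.885, 95% interval -0.25 to 0.33). HLA-F, another non-classical heavy chain, had 2 probes on different RefSeq transcripts, and they disagreed. The brighter (ILMN_2186806) read 11.61, 11.54 and 11.64 in KD1, 12.09, 11.88 and 11.79 in KD2, and 11.75, 11.65 and 11.82 in Luc, with log2 fold changes of -0.14 for KD1 (adjusted p = 0.513) and 0.18 for KD2 (adjusted p = 0.359). The other HLA-F probe (ILMN_1762861) read 8.29, 8.56 and 8.62 in KD1, 8.25, 7.79 and 8.26 in KD2, and 7.93, 7.57 and 7.90 in Luc. On that probe KD1 lay above every other array, 1.61-fold higher than Luc (log2 fold change 0.69, SE 0.17, adjusted p = 0.0246), and KD2 gave 0.30 (adjusted p = 0.258). This HLA-F call was lost with scaling to the median of all probes (log2 fold change 0.41, adjusted p = 0.138) and without KD1 replicate 2, KD1 replicate 3 or Luc replicate 2, with adjusted p between 0.0661 and 0.0870.

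B2M, the light chain shared by all these heavy chains, had 2 probes that gave similar values. The first (ILMN_1725427) read 13.76, 13.74 and 13.65 in KD1, 13.93, 13.86 and 13.88 in KD2, and 13.64, 13.55 and 13.63 in Luc. Its groups did not overlap, with KD2 highest and Luc lowest, but the log2 fold changes were small, 0.11 for KD1 (adjusted p = 0.582) and 0.28 for KD2 (adjusted p = 0.109). The second B2M probe (ILMN_2148459) gave 0.16 for KD1 (adjusted p = 0.450) and 0.29 for KD2 (adjusted p = 0.149). Neither probe passed the test here, and both were called in KD2 without background correction, with the deposited values, with an intensity trend and with scaling to the median of the tested probes.

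The other genes of the class I system were read by gene, each by its brightest tested probe. Beside the list counts that follow, 15.4% of all tested probes were called with KD1 and 21.4% with KD2. By an unadjusted p under 0.05, 4849 and 5587 of the 16164 probes passed. No list was tested as a set. Of 7 tested class I and class I-like genes outside the members, 1 was lower with KD1 and 2 were higher with KD2. FCGRT, the neonatal Fc receptor, fell with KD1 (log2 fold change -0.61, adjusted p = 0.0284), a call lost under 7 of 20 alternatives. MICB and MICA, stress-induced ligands of the NK receptor NKG2D, rose with KD2, MICB by 0.64 (adjusted p = 0.00613) and MICA by 0.59 (adjusted p = 0.0315, lost under 6 of 20 alternatives). HLA-G gave 0.06 for KD1 and 0.20 for KD2, with neither called. The list medians were 0.06 for KD1 and 0.20 for KD2.

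Among 6 tested genes of peptide loading and folding, 1 was lower with KD1, and 2 were higher and 1 lower with KD2. TAPBP (tapasin), which holds the empty heavy chain at the transporter, rose with KD2 by 0.63 (adjusted p = 0.00875) and stood at 0.10 with KD1 (adjusted p = 0.666). CALR (calreticulin), a chaperone of the loading complex, rose with KD2 by 0.73 (adjusted p = 0.00231) and stood at -0.06 with KD1 (adjusted p = 0.781). CANX (calnexin), the chaperone that receives the new heavy chain, fell with KD2 to a log2 fold change of -2.23 (adjusted p = 1.32e-05). With KD1, CANX was at -0.50 (adjusted p = 0.033), a call lost under 9 of 20 alternatives. The other CANX probe was at -2.41 with KD2, and the dim TAPBP probe at 0.39 (adjusted p = 0.337). The KD1 and KD2 values differed for TAPBP (adjusted p = 0.0174), CALR (adjusted p = 0.00103) and CANX (adjusted p = 2.72e-05) in the direct comparison.

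Of 7 proteasome genes outside the members, 3 were higher with KD2 and 0 with KD1 in limma, where PSMB10 and PSME1 had an unadjusted p under 0.05. PSMB10, the remaining immunoproteasome catalytic subunit, was 1 of 4 immunoproteasome partners called in KD2, at 0.51 (adjusted p = 0.024, lost under 6 of 20 alternatives), and gave 0.37 with KD1 (adjusted p = 0.0961). PSME1 and PSME2, subunits of the proteasome activator PA28, passed the test with neither siRNA, at 0.39 and 0.06 for KD1 and 0.30 and 0.10 for KD2. Of the 3 constitutive catalytic subunits that the immunoproteasome replaces, PSMB5 (0.54, adjusted p = 0.00854) and PSMB7 (0.59, adjusted p = 0.0426, lost under 9 of 20 alternatives) were higher with KD2. PSMB6, the constitutive counterpart of PSMB9, gave 0.36 with KD2 (adjusted p = 0.0738) and -0.22 with KD1 (adjusted p = 0.297). The KD2 calls included constitutive as well as interferon-induced catalytic subunits.

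Of 8 tested genes of peptide trimming, 0 were called with KD1 in limma (1 higher by an unadjusted p under 0.05) and 2 were lower with KD2. These were BLMH, a bleomycin hydrolase (-0.93, adjusted p = 0.0025), and THOP1, an oligopeptidase (-0.58, adjusted p = 0.0276, lost under 5 of 20 alternatives). ERAP1, which trims peptides in the endoplasmic reticulum, gave -0.13 with KD1 (adjusted p = 0.794) and -0.30 with KD2 (adjusted p = 0.444). The ERAP1 probe was near background, detected on 2 KD1, 1 KD2 and 3 Luc arrays, so a change could be missed. ERAP2 gave 0.38 with KD1 (adjusted p = 0.129) and 0.13 with KD2 (adjusted p = 0.611), but its dimmer probe was lower with KD1, at -1.19 (adjusted p = 0.0102). The brightest gene of the list, NRDC, gave -0.01 and -0.14.

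Of 10 tested transcription factors of the class I promoters, 0 were called with KD1 in limma (5 higher and 1 lower by an unadjusted p under 0.05) and 2 were lower with KD2, NFYA (-0.73, adjusted p = 0.013) and NFKB1 (-0.46, adjusted p = 0.02, lost under 4 of 20 alternatives). IRF1, which binds interferon response elements, gave 0.35 with KD1 (adjusted p = 0.127) and -0.06 with KD2 (adjusted p = 0.820). NLRC5, the class I transactivator, was detected on 0 KD1, 0 KD2 and 1 Luc array and was not tested.

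Among 12 tested interferon receptors and signalling genes, 2 were lower with KD1, and 3 were higher and 1 lower with KD2. Of all tested probes, 15.4% were called with KD1 and 21.4% with KD2. PTPN2, a phosphatase that restrains JAK and STAT signalling, fell with both siRNAs, with log2 fold changes of -0.84 for KD1 (adjusted p = 0.0068) and -1.40 for KD2 (adjusted p = 3.63e-04), on its brighter probe, while its dim probe was at 0.02 and 0.05. IFNAR1 and IFNAR2, the chains of the type I interferon receptor, were higher with KD2, at 0.73 (adjusted p = 0.00697) and 0.77 (adjusted p = 0.00819), although the dimmer IFNAR2 probe gave 0.21 (adjusted p = 0.508). With KD1, IFNAR1 was lower at -0.50 (adjusted p = 0.0497, lost under 11 of 20 alternatives) and IFNAR2 was at -0.42 (adjusted p = 0.112). IFNGR2, a chain of the interferon gamma receptor, was higher with KD2 at 0.58 (adjusted p = 0.00938).

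Interferon-stimulated genes were lower with KD1 in 19 cases of 37 tested, and changed in both directions with KD2. In limma 0 were higher with KD1, also by an unadjusted p under 0.05, with a list median of -0.63 against 0.00 over all tested probes. IFIT1 and IFIT2, which bind foreign RNA, had log2 fold changes of -1.93 each (adjusted p = 1.3e-04 and 2.56e-05), XAF1 had -1.53 (adjusted p = 7.16e-04) and ISG15, a ubiquitin-like modifier, had -1.40 (adjusted p = 8.01e-05). With KD2, 8 were higher and 5 lower, with a median of 0.09, the largest being XAF1 (-1.52), SP100 (-1.37), RIGI (1.09) and IFI35 (0.97). With the deposited log2 values the KD1 values were -1.09 for IFIT1, -1.26 for IFIT2, -0.37 for XAF1 and -0.91 for ISG15, and the KD2 values were -0.37 for XAF1, -0.49 for SP100, 0.52 for RIGI and 0.64 for IFI35, each still called. Dimmer probes did not share the IFIT1 value with KD1 (-0.12) or the SP100 value with KD2 (-0.20 and 0.22). In the direct comparison, 22 were lower and 1 higher in KD1 than in KD2. These counts include EPSTI1, called lower with KD2, which was detected on 3 Luc, 1 KD1 and 0 KD2 arrays. It passed the filter mainly through Luc, so its KD2 value is no measured fold and adds no support. The counts also include IFI44L, called lower with both siRNAs (log2 fold change -0.85 with KD1 and -0.86 with KD2). It could be fitted under only 16 alternatives, and its KD1 call was lost with the deposited values. A probe detected on few arrays drops out when an array is left out. The IFI44L values are therefore not taken as measured folds and add no support.

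MHC class II genes, several of which lie beside TAP2 and PSMB9, were called higher in 4 of 6 listed genes with KD1 and in 4 of 6 with KD2, with medians of 0.57 and 0.91. HLA-DPB1 passed with neither, at 0.29 with KD1 and -0.19 with KD2, but was near background, detected on 2 KD1, 1 KD2 and 1 Luc array. HLA-DOA, a class II gene outside the list, was at -0.10 with KD1 (adjusted p = 0.800) and -0.57 with KD2 (adjusted p = 0.0807). HLA-DRA, a class II chain, rose by 1.12 with KD1 (adjusted p = 0.00101) and 1.04 with KD2 (adjusted p = 9.42e-04). HLA-DMB and HLA-DMA, which load class II molecules, rose by 1.39 and 1.06 with KD2 (adjusted p = 1.03e-04 and 8.48e-04), and by 0.59 and 0.55 with KD1 (adjusted p = 0.0111 and 0.0287, the second lost under 6 of 20 alternatives). HLA-DPA1 rose by 0.90 with KD1 (adjusted p = 0.00222) and gave 0.24 with KD2 (adjusted p = 0.249). CD74, the invariant chain, rose by 0.77 with KD2 (adjusted p = 0.00861) and gave 0.34 with KD1 (adjusted p = 0.207), where its 2 dimmer probes were higher, at 0.56 (adjusted p = 0.028) and 0.95 (adjusted p = 0.023). CIITA, the class II transactivator, was undetected on all 9 arrays. HLA-DRA and CD74 are also 2 of the leukocyte markers whose summed level was higher in KD1 and KD2 than in Luc.

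**Figure D3:**
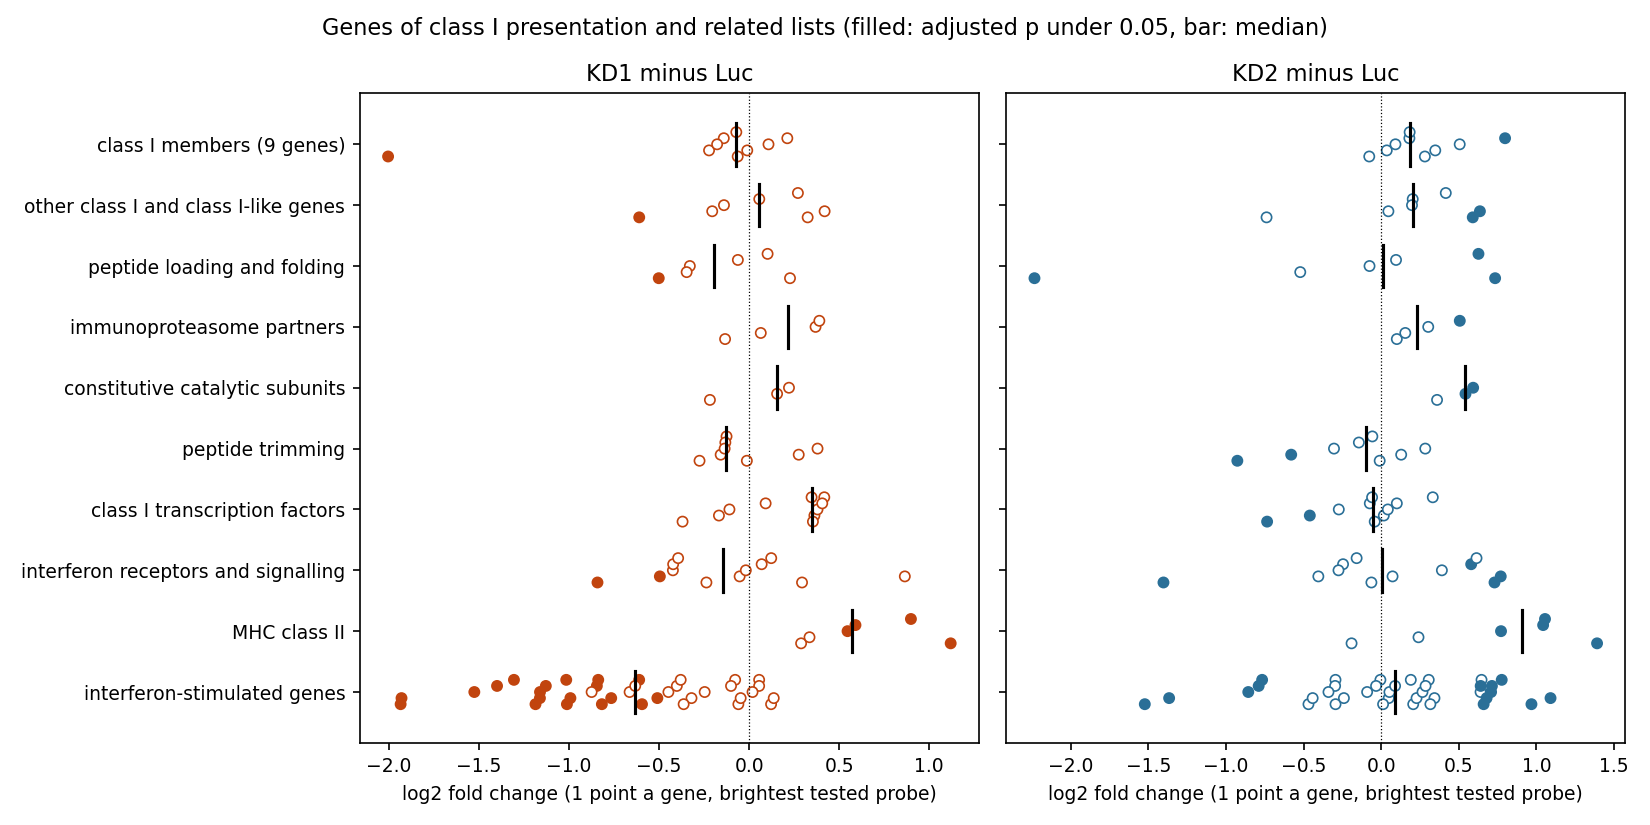
Log2 fold change of each tested gene (points, brightest tested probe, filled where the adjusted p is under 0.05) by list, with the list median as a bar, for KD1 minus Luc and KD2 minus Luc. The interferon-stimulated genes have a median of -0.63 in KD1 and 0.09 in KD2, the filled points among the class I members are TAP2 at -2.00 in KD1 and PSMB9 at 0.80 in KD2, and 4 of 6 class II genes are filled in each panel.

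Along the chromosome, the genes beside the class I members gave values of either sign. In order, TAP2, PSMB8, TAP1 and PSMB9 gave log2 fold changes of -2.00, -0.18, -0.22 and -0.01 with KD1, and of -0.08, 0.09, 0.18 and 0.80 with KD2. The next genes, HLA-DMB and HLA-DMA, rose with both siRNAs, while BRD2, which follows, passed the test with neither, at 0.16 with KD1 and -0.20 with KD2. Whether neighbouring genes differed from each other was not tested.

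**Figure D4:**
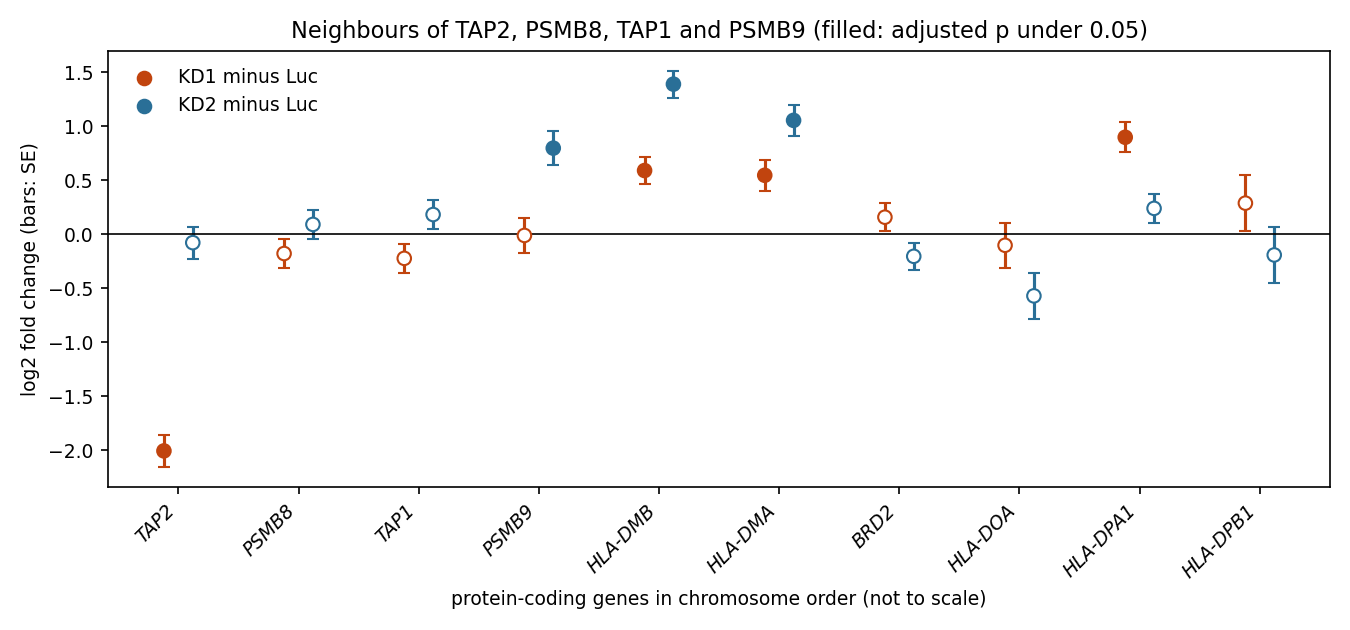
Log2 fold change with SE (bars) of the protein-coding genes with a tested probe around the class I members, in chromosome order and not to scale, for KD1 minus Luc and KD2 minus Luc (filled where the adjusted p is under 0.05). TAP2 at -2.00 is the low point with KD1, and HLA-DMB at 1.39 is the high point with KD2.

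By the smallest root mean square difference over the 9 arrays, after each probe was centred on its Luc mean, the genes most like TAP2 among 10264 searched were IFIT2 (0.186), MPZL2 (0.186), SFXN1 (0.192), AMMECR1 (0.197) and DYNLT3 (0.203). Among these genes only IFIT2 is on the list of interferon-stimulated genes, and it was nearly tied with MPZL2 (0.1859 and 0.1862). The genes most like PSMB9 were ACER3 (0.0923), ECI2 (0.121), CRYZ (0.127), LAMP2 (0.128) and CKLF (0.129). These values describe the shape over the 9 arrays, which share the same chip, and say nothing of shared control.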

How the data were processed

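RNA of 9 samples was labelled as biotin cRNA with the Ambion MessageAmp kit and read on Illumina bead arrays, per the labels. The deposited probe intensities are linear and not normalized between arrays, and a detection p-value stands beside each, per the file headers. The deposited series values are log2, quantile-normalized as their values show, and lumi is named in the submitters' processing notes; the steps it was used for have no source here.

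In limma 3.58.1 (R 4.3.3), neqc used the detection p-values to correct the background, and its output, with offset 16 and quantile normalization, is log2. Symbols came from the platform annotation, updated through a RefSeq table: 28094 of 48799 probes had 1 symbol, 13 several and 20692 none. The 16164 probes detected (p under 0.05) on 3 arrays or more entered lmFit and eBayes, a mean per group, 6 residual degrees of freedom, two-sided, Benjamini-Hochberg adjusted over all of them. The number of arrays limits precision, the median residual SD was 0.2249, and p-values measure the spread between arrays, which may be technical. An exact permutation test of 3 against 3 cannot go below 0.1, so none was used. The fit was tested on simulated data.

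The members, gene lists and tests were chosen with earlier results of these data known. Every member probe is reported. A list gene counts by its brightest tested probe. For each comparison with Luc, up to 4 called genes a list with the largest change were named, or up to 2 of the brightest without a call. List genes were not picked by the comparison of KD1 with KD2, so genes called there can be unnamed. Always named were NLRC5, IRF1, TAPBP, PSMB10, PSME1, PSME2, PSMB5, PSMB6, PSMB7, ERAP1, HLA-G and CALR. Likeness was sought for the 2 genes whose group means ranged most. The offset interferon element, the BRD2 values and scaling to the median of the tested probes were chosen after the data were seen. Replicate numbers were not used to pair arrays in the main fit. Same-numbered deviations correlated at -0.0179 to 0.11 and differently numbered ones at -0.0931 to 0.0611, and whether the numbers mark pairs was not tested.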

Additional observations from a re-analysis of the deposited data

Results flagged for a closer look

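The effects of the siRNAs relative to Luc differed from each other on 5 member probes, by the direct test of KD1 against KD2, which equals the difference of both effects. The first TAP2 probe differed by -1.93 on the log2 scale (adjusted p = 2.59e-05) and the second by -1.61 (adjusted p = 9.367e-04). The brighter PSMB9 probe differed by -0.81 (adjusted p = 0.00469) and the TAP1 probe by -0.41 (adjusted p = 0.0497). The fifth is the dim PSMB9 probe, with a fitted difference of -0.68 (adjusted p = 0.005265); it was undetected in KD1 and entered the fit through KD2 alone, so the measured difference is only a bound, at least 1.35-fold higher in KD2 than in KD1, and adds no support. With 25.7% of all tested probes called in this comparison, such differences were common among all genes. The position of the KD1 arrays on the chip cannot be told apart from KD1.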

How the results depend on the processing

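No result turned direction past its threshold under any alternative. Over all tested probes, KD1 against Luc gave 2497 calls, and 1628 to 2417 when 1 array was left out, the lowest without Luc replicate 2. For all 16 member probes, the dim PSMB9 probe included, in KD1 against Luc (3 calls), the brightest probe per gene left 1, and leaving out 1 array gave 1 to 3, the lowest without KD1 replicate 2. In KD2 against Luc (2 calls), 6 were called without background correction, with the deposited values, with an intensity trend in eBayes and with scaling to the median of the tested probes, 1 with the brightest probe, and 1 to 3 with 1 array left out, the lowest without any 1 KD2 array, where the dim PSMB9 probe was no longer tested. In KD1 against KD2 (5 calls), the intensity trend gave 9, the brightest probe 3, and leaving out 1 array 3 to 5. Fewer probes or arrays entered with the brightest probe and with 1 array left out. The settings that gave 6 and 9 calls used the same 16164 probes and 9 arrays. The cause was not tested. Scaling to the median of all probes moved the median of the tested probes by -0.19, -0.09 and -0.09 (KD1 against Luc, KD2 against Luc, KD1 against KD2), and split the calls into 438 higher and 2743 lower, 1052 and 2295, and 1243 and 2495; scaling to the median of the tested probes gave 1498 and 1139 for KD1 and 2063 and 1584 for KD2. The first TAP2 probe with KD1 and the first PSMB9 probe with KD2 kept their calls under all 20 alternatives. With the replicate block, 2256, 3269 and 3906 probes and 3, 2 and 4 member probes were called, the TAP1 call being lost. Probes near background, the dim PSMB9 probe among them, were limited by their signal, and its difference between KD1 and KD2 was lost without background correction and with the deposited values. With the deposited values, 5 of 10 member calls and 61 calls of list genes had a log2 fold change smaller by over 1.5 times, and 9 of those 10 member results were still calls.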
